A study of Mus musculus with 6 samples.

Results

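The genes described here are 10 genes of cell survival and of the p53 pathway, out of 21883 protein-coding genes in the RefSeq table used. They are Bcl2, Bcl2l1 and Mcl1 (survival members of the BCL2 family), Birc2, Birc3 and Birc5 (inhibitor-of-apoptosis family), Bbc3 and Pmaip1 (death-promoting BH3-only genes) and Cdkn1a and Mdm2 (p53 targets). They were chosen by name, and every peak summit within a gene or within 50 kb of its start or end was assigned to it (GRCm38, mm10). All 10 genes were found in the table, and 9 had a transcript start in the RefSeq promoter table. Pmaip1 is the exception.

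The data are 6 lists of peak summits from chromatin immunoprecipitation sequencing of mouse gastric corpus epithelium, taken off with EDTA and fixed without culture. The normal group is of WT genotype and the tumor group of genotype CluCreERT2;R26rtTA;HA-Yap+, which names a tamoxifen-activated Cre driven by Clu, a doxycycline-dependent transactivator and an HA-tagged Yap. Such a Cre acts in cells that use Clu, so the preparation can also hold epithelial cells in which it never acted. The labels give all 6 libraries, WT ones included, the same regimen of 2 mg tamoxifen on 5 days and doxycycline food for 14 days. H3K27ac, an acetylation of active promoters and enhancers, has 1 library per group, and YAP has 2 libraries per group. The labels give no age and do not say whether libraries came from separate animals, so differences between libraries may be technical.

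Summits on chromosomes 1 to 19, X and Y numbered 22574 and 66896 in the normal and tumor H3K27ac lists, 1654 and 2141 in YAP normal 1 and 2, and 38268 and 53904 in YAP tumor 1 and 2. Read depth is unknown, because a summit list does not hold it. The peak names of YAP normal 2 carry the same word as the tumor H3K27ac list, and those of YAP tumor 1 the word of the normal H3K27ac list, so each YAP library is named here by its label and every direction between YAP groups rests on those labels. In the H3K27ac lists all 7 epithelial marker genes had a summit inside the gene or within 1 kb of it in both groups. Of 9 corpus gland genes 8 had one in each list, with Tff2 without any in the normal list and Gkn1 in the tumor list. Immune genes had one in 2 of 6 (normal) and 4 of 6 (tumor), with Cd3e, a T cell gene, without any in both. Stromal, muscle and endothelial genes had one in 4 of 7 and 6 of 7, with 6 and 25 summits in all, squamous genes in 0 of 3 and 2 of 3, and intestinal genes in 1 of 3 and 3 of 3. These marker counts used the full lists, of which the tumor list is the longer, and none was made at equal list length. With the full lists 81.3% of all genes had more tumor than normal H3K27ac summits within 50 kb. The part of immune, stromal, squamous or intestinal cells in the results below was not tested.

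Cells die by apoptosis when the BH3-only proteins overcome the survival proteins of the BCL2 family at the mitochondrion, which releases cytochrome c and activates caspases. Inhibitor-of-apoptosis proteins act further on, at caspases and at signalling from death receptors, and Birc5 (survivin) also serves chromosome segregation in mitosis. The p53 protein switches on Bbc3, Pmaip1 and Cdkn1a after damage, and also Mdm2, whose product in turn marks p53 for degradation. YAP, held back by the Hippo kinases, does not bind DNA itself but acts through TEAD factors, often beside AP-1, and promotes growth and survival in epithelia. The stomach lining is renewed throughout life, so survival and arrest genes bear on how many cells a gland keeps.

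The promoters at which these results turn are shown first, each as the 250 bases before the transcript start (RefSeq, GRCm38.p6), read 5′ to 3′ on the gene's strand. Capitals mark motif matches on either strand. For Bcl2l1 and Mcl1 this is GGAATG, the core of the TEAD motif (CATTCC on the other strand). For Birc5, Mdm2 and Cdkn1a it is the p53 half-site of 10 bases, of which a full p53 response element takes a pair. The upstream Cdkn1a start, which has no summit, was added after the values were seen, to stand beside the downstream start, which has.
Bcl2l1, chr2:152831729-152831978, minus strand: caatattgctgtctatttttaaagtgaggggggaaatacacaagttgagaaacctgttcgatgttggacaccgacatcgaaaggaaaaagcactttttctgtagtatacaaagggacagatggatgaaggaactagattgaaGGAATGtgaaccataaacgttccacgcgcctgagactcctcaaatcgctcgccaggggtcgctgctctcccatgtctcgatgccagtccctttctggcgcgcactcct
Mcl1, chr3:95658471-95658720, plus strand: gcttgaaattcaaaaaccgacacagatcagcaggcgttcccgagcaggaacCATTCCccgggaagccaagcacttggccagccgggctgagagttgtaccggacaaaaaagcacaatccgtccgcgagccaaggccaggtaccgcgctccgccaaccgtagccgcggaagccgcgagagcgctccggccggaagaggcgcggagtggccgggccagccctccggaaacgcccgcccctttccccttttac
Birc5, chr11:117848987-117849236, plus strand: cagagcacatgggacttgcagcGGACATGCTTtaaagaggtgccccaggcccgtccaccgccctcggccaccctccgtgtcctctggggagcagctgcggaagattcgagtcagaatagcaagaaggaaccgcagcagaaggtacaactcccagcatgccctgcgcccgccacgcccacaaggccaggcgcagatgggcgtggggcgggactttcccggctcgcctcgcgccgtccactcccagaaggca
Mdm2, chr10:117710759-117711008, minus strand: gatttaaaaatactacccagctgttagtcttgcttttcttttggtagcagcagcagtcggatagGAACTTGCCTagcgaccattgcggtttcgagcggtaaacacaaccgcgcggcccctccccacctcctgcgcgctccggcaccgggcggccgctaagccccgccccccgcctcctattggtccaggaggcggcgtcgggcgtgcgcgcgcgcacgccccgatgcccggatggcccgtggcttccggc
Upstream start of Cdkn1a, chr17:29090729-29090978, plus strand: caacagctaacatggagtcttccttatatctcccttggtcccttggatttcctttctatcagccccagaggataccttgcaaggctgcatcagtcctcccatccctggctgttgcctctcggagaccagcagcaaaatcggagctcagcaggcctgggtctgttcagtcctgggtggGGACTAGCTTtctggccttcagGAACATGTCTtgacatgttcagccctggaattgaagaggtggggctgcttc
Downstream start of Cdkn1a, chr17:29093519-29093768, plus strand: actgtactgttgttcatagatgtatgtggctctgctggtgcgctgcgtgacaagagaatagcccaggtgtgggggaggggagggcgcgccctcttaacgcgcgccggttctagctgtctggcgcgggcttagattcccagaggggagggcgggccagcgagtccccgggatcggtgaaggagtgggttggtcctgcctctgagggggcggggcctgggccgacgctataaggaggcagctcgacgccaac

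GGAATG was present in 2 of the 15 promoters of these genes, at 108 to 103 bp before the start of Bcl2l1 and 199 to 194 bp before that of Mcl1. Over all 21262 promoters of protein-coding genes (300 bases each, from 250 before to 50 after the start), 13.6% held it. YAP summits lay 69 bp (tumor 1) and 26 bp (tumor 2) downstream of that Bcl2l1 start, and 110 bp downstream and 99 bp upstream of the Mcl1 start. Every other gene with a start in the promoter table also had a summit of each tumor library within 1 kb of a start. None of their promoters held GGAATG. The AP-1 letters TGANTCA were in 0 of the 15 promoters, against 6.99% of all. At least 1 p53 half-site was in 4 of the 15, against 7.37% of all. It lay 228 to 219 bp before the start of Birc5 and 186 to 177 bp before that of Mdm2. It also lay 10 to 19 bp after the second start of Birc2, and the upstream Cdkn1a promoter held 2 matches (73 to 64 and 51 to 42 bp before the start). A match describes these letters only, and the rest of each window was not searched.

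YAP summits were found around every one of the 10 genes in both libraries labelled tumor. A site of both tumor libraries, meaning a one-to-one pair of summits within 200 bp, was present in the window of 10 of 10 genes. Over all protein-coding genes 79.2% had one, so this count stands on a high background. Windows held 3 to 11 such sites with a median of 5, against a median of 3 over all genes. For 10 of 10 genes both tumor libraries had more summits than both normal libraries, as did 79.2% of all genes. YAP normal 1 had 0 summits in all 10 windows, and YAP normal 2 had 1, which lay in the Bcl2 window 294 bp inside the neighbouring gene Kdsr. Over all genes 94.0% and 85.1% had 0 summits in these 2 short lists, so the members were like most genes there. An exact permutation test (two-sided, n = 2 per group) returned p = 0.333 for each of the 10 genes, the smallest value possible with 2 libraries against 2, and 0.421 after Benjamini-Hochberg adjustment over all genes. No gene of the 21883 had an exact p under 0.05 (0 genes), since none could. With every YAP list shortened to its 1654 best-scored summits, 3 of 10 genes (Birc2 and Birc3 through 1 shared site, and Bbc3 through a site at its neighbour Ccdc9) had more summits in both tumor libraries, against 9.83% of all genes. With libraries grouped by the words in their peak names, 0 of 10 genes had more summits in both libraries that carry the word of the tumor H3K27ac list, as did 0.224% of all genes.

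**Figure D1:**
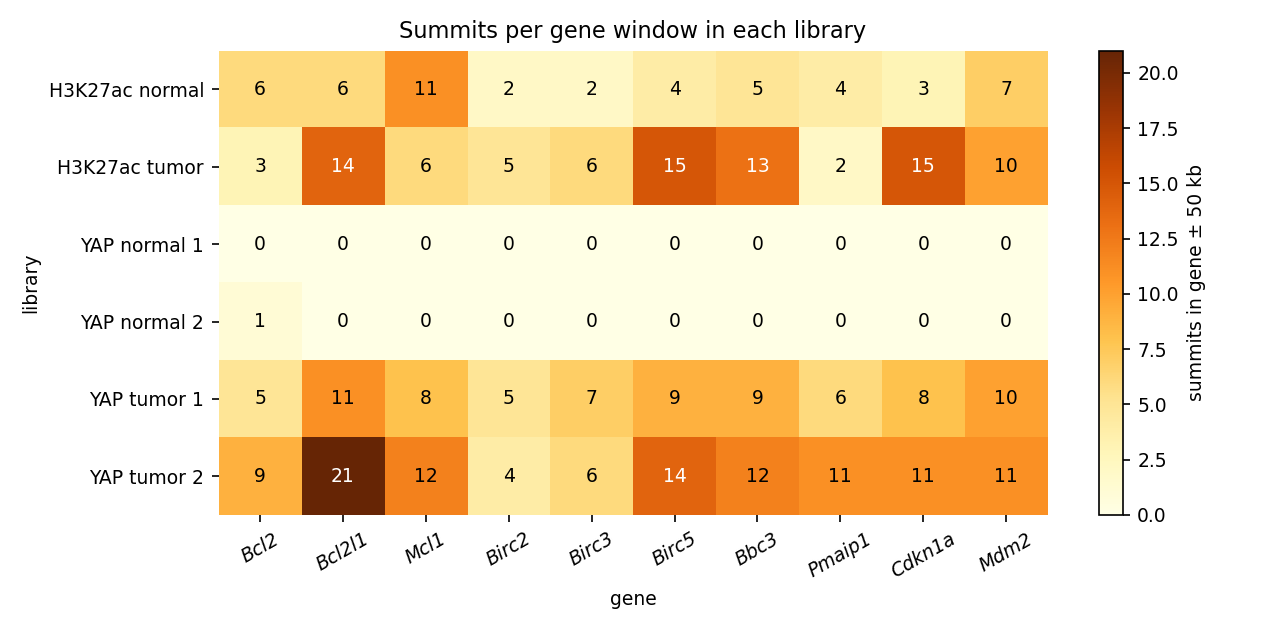
Number of summits in each gene and 50 kb to either side (colour and printed number), with genes in columns and the 6 libraries in rows. YAP tumor 1 has 5 to 11 and YAP tumor 2 has 4 to 21 summits per gene, and the 2 normal YAP rows are at 0 but for 1 summit in the Bcl2 window.

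Among the survival genes of the BCL2 family, Bcl2l1 had the most YAP summits in its window, though 6 of its 11 sites were nearest to other genes. The window (chromosome 2, gene 152758732 to 152833803) held 11 summits in tumor 1 and 21 in tumor 2, a mean of 16 ± 7.07 (SD, n = 2), against 0 in both normal libraries. Of the 11 sites of both tumor libraries, 97.6% of genes having fewer, 5 lay inside Bcl2l1, which encodes BCL-XL. Another 5 lay nearest to Id1, a gene for an inhibitor of helix-loop-helix factors, and 1 nearest to Tpx2, a spindle gene. The site at the transcript start, with summits at 152831659 and 152831702, ranked 5332 of 38268 in tumor 1 and 2078 of 53904 in tumor 2 by score. The 4 other sites inside the gene lay 8004 to 61809 bp downstream of the nearest start. The best of these ranked 7432 and 8826.

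Mcl1, whose short-lived product also guards the mitochondrion, had 8 and 12 YAP summits in the tumor libraries (chromosome 3, gene 95656944 to 95663179, mean 10 ± 2.83, SD, n = 2) and 0 in both normal libraries. Both tumor libraries had a well-ranked summit at the Mcl1 start (3468 and 3936), at 95658831 and 95658622, but the pair is just over the 200 bp limit and was not counted as a site. Of the 4 sites counted, the best ranked lay 31823 bp away at Ensa (1873 and 1437), 1 lay nearest to Adamtsl4, and the other two lay 3153 and 5112 bp outside Mcl1. The start thus has a summit in each tumor library without being counted.

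Bcl2, the founding survival gene of the family, had 5 and 9 YAP summits in tumor 1 and 2 and 0 and 1 in normal 1 and 2 (chromosome 1, gene 106538176 to 106714290). The tumor mean was 7 ± 2.83 and the normal mean 0.5 ± 0.707 (SD, n = 2 each), and the groups did not overlap. It is the longest of the 10 genes at 176115 bp and had the fewest sites per length, 1.45 per 100 kb of window. Of its 4 sites, 1 lay at the start (summits 31 and 144 bp downstream, ranks 5903 and 11046) and 1 deep in the gene, 53367 bp from its nearer end, where the tumor summits were 1 bp apart at 106591543 and 106591544. Another lay 26392 bp outside the gene. The best ranked (2706 and 5358) belonged to Kdsr.

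Of the inhibitor-of-apoptosis genes, Birc2 had the best-ranked promoter site of all members. Birc2 (7818226 to 7837131) and Birc3 (7847468 to 7873205) are neighbours on chromosome 9 and encode cIAP1 and cIAP2, ubiquitin ligases of death receptor signalling. Their windows overlap, so 3 sites are counted in both and the genes are not independent here. Birc2 had 5 and 4 YAP summits in tumor 1 and 2 and 0 in both normal libraries, a mean of 4.5 ± 0.707 (SD, n = 2). Its start had summits at 7837144 and 7837025, ranked 1451 and 1077, within the best 3.79% and 2.0% of the tumor lists. Only 9.06% of the 8514 genes with a site at a start had a better mean rank.

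Birc3 had 7 and 6 summits in the tumor libraries (mean 6.5 ± 0.707, SD, n = 2) and 0 in both normal libraries. The site at its own start was among the lower ranked (14767 and 13604), and 78.0% of genes with a site at a start ranked better. Another 2 of its sites lay upstream, towards Yap1. One lay 24541 bp outside Birc3, and the other lay 41460 bp outside it and 17334 bp from Yap1, the gene of the immunoprecipitated protein.

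Birc5 had 9 and 14 YAP summits in the tumor libraries and 0 in both normal libraries (chromosome 11, gene 117849237 to 117855743, mean 11.5 ± 3.54, SD, n = 2). Most of them belong to its neighbours: of 7 sites, 4 lay nearest to Tha1, 1 to Tk1, 1 to Afmid, and only 1 to Birc5. That one lay at the promoter printed above, with summits 66 bp upstream and 23 bp downstream of the start, ranked 4762 and 7154.

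The BH3-only genes carried YAP as well. Bbc3, which encodes PUMA, had 9 and 12 summits in the tumor libraries and 0 in both normal libraries (chromosome 7, gene 16308398 to 16318334, mean 10.5 ± 2.12, SD, n = 2). Its 8 sites were the most per length, 7.28 per 100 kb, but only 2 were nearest to Bbc3. One was at a start (summits 58 and 134 bp upstream, ranks 16853 and 17800), where 83.4% of genes with such a site ranked better. The other lay 3555 bp downstream of the nearest start and ranked higher, at 9744 and 6720. The best site of the window (627 and 947) was that of Ccdc9, 21793 bp away.

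Pmaip1, which encodes NOXA, had 6 and 11 YAP summits in the tumor libraries and 0 in both normal libraries (chromosome 18, gene 66458604 to 66465558, mean 8.5 ± 3.54, SD, n = 2). It is the 1 member with no other protein-coding gene in its window, and all 5 of its sites were nearest to it. One lay 75 and 58 bp inside the gene from its start coordinate (ranks 12262 and 11008). The rest lay 10998 to 48001 bp outside the gene, and the best ranked of all 5 was the most distant (11232 and 7878).

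Cdkn1a, which encodes the cell cycle inhibitor p21, had 8 and 11 YAP summits in the tumor libraries and 0 in both normal libraries (chromosome 17, gene 29090979 to 29100722, mean 9.5 ± 2.12, SD, n = 2). Of 5 sites, 3 were nearest to Cdkn1a. One sat at its downstream start, 7 and 25 bp downstream (ranks 11708 and 15644), and a better-ranked one 1758 bp downstream of that start (4611 and 4470). The upstream start, whose promoter holds 2 p53 half-site matches, had its nearest tumor YAP summits 2797 and 2815 bp away. The best-ranked site of the window (4359 and 1402) lay 44727 bp outside Cdkn1a, nearest to Srsf3.

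Mdm2, the p53 ubiquitin ligase gene, had 10 and 11 YAP summits in the tumor libraries and 0 in both normal libraries (chromosome 10, gene 117688875 to 117710758, mean 10.5 ± 0.707, SD, n = 2). Its 7 sites included 1 at the start, 36 and 49 bp downstream with ranks 6759 and 5225, and 1 located 7041 bp upstream of it (37419 and 25274), close to the bottom of the tumor 1 list. Those 2 were nearest to Mdm2, 3 were nearest to Cpm and 2 to Slc35e3, and the best-ranked site of the window (3686 and 3626) was 10 bp from an end of Slc35e3.

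**Figure D2:**
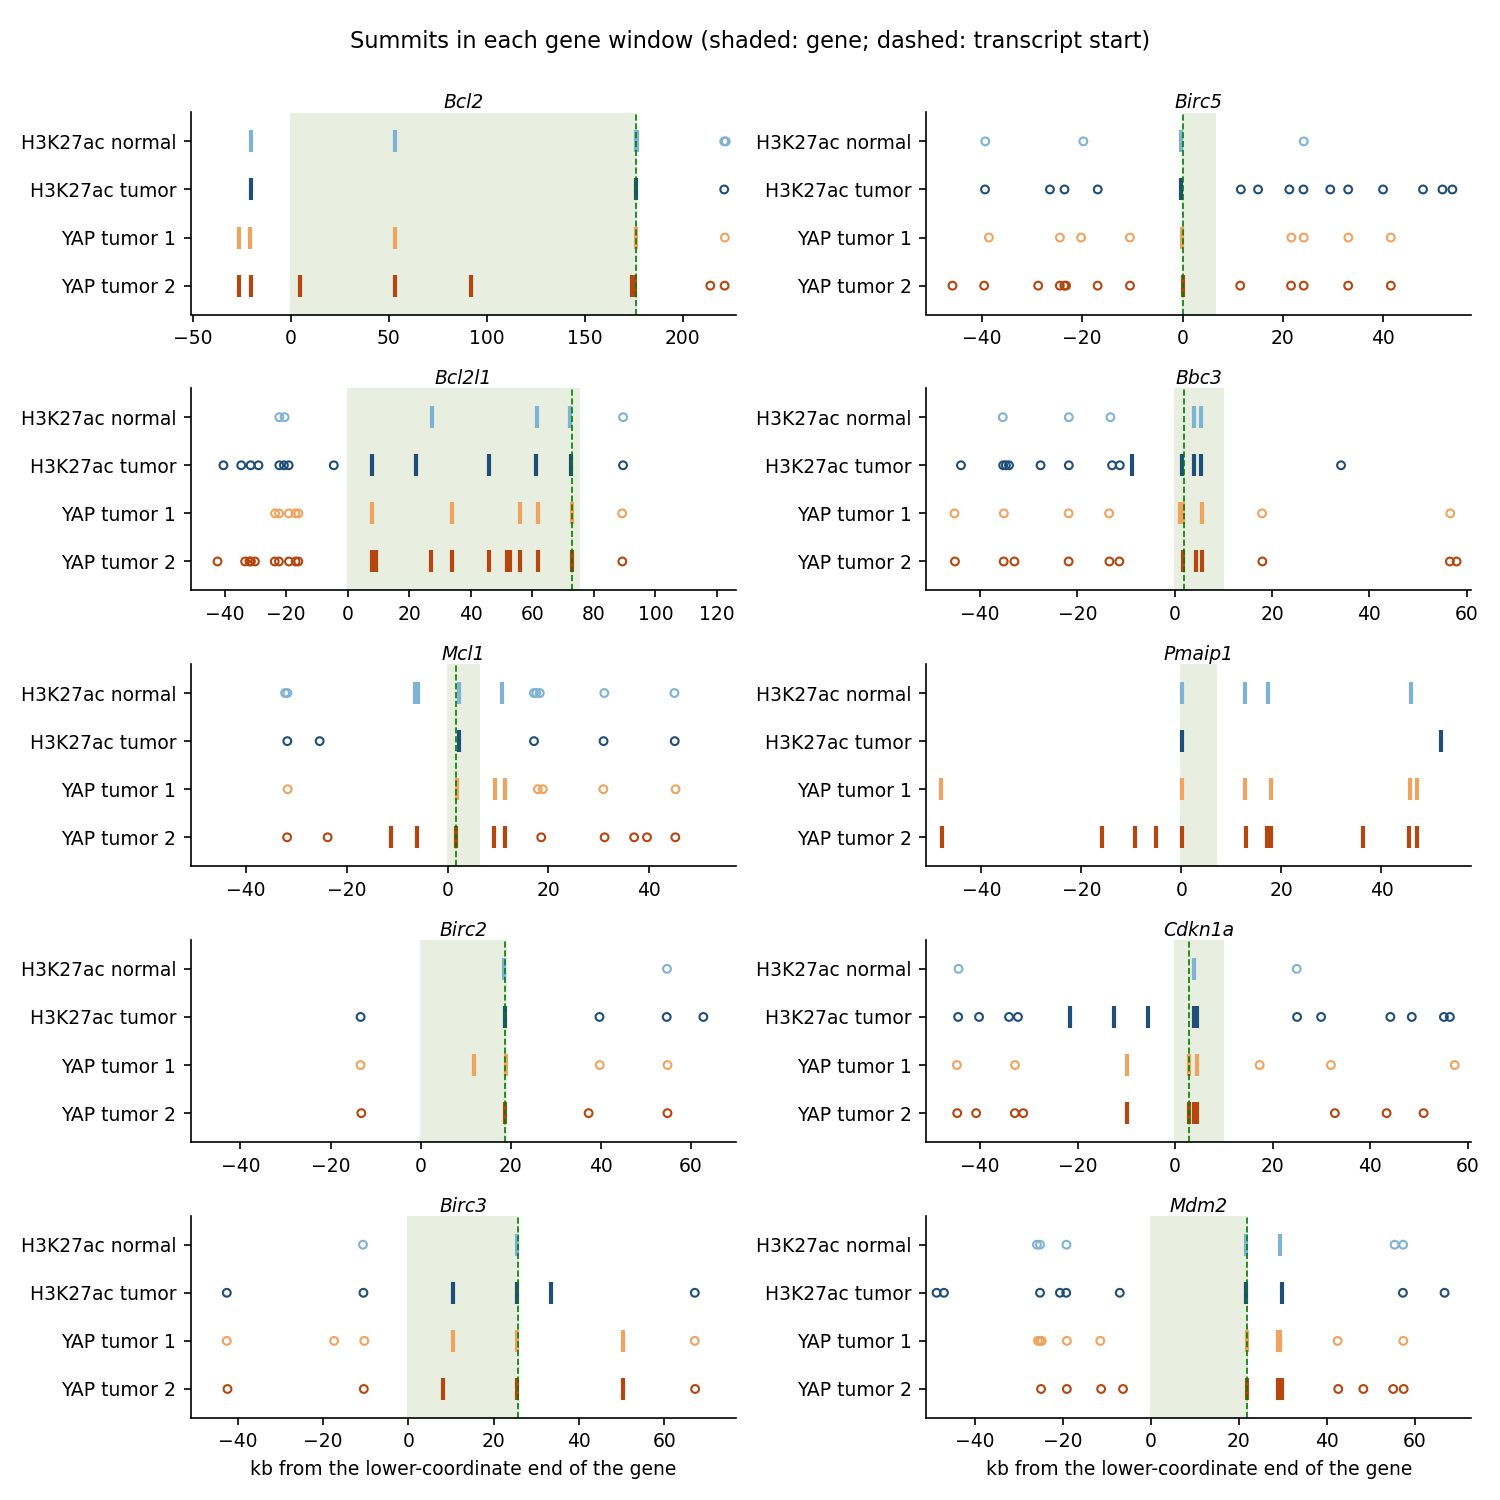
Summit positions in the 10 gene windows, in kb from the lower-coordinate end of each gene, for the 2 H3K27ac libraries and the 2 YAP tumor libraries. Vertical ticks are summits whose nearest protein-coding gene is the member, open circles are nearest to another gene, the shaded span is the gene, and the dashed line is a transcript start (none for Pmaip1). Each panel shows ticks of all 4 libraries at or beside the start of the gene, and of 56 distinct YAP sites 26 are nearest to a member.

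Across the 10 windows there were 56 distinct sites of both tumor libraries, and 30 of them were nearest to a gene that is not a member. The site counts of crowded windows (Birc5 with 6 other genes, Bbc3 with 4) therefore describe a neighbourhood. The 1 normal YAP summit of these windows lay 277 bp from the site at Kdsr. Counting only summits nearest to the member left all 10 genes with a site. The share of all genes with one by that count was not computed.

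YAP stood at the transcript starts of most of these genes, a measure added after the values were seen. Of the 9 genes with a start in the table, 8 had a site of both tumor libraries within 1 kb of one, against 48.7% of the 17491 genes with a start. Among the 11683 genes that also had a tumor H3K27ac summit within 1 kb of a start, 7 of 8 members and 70.6% of all had such a site. With a summit of each tumor library within 1 kb of the same start and no pairing, Mcl1 joined and the count was 9 of 9, against 54.7% of all. Every one of those 18 tumor summits lay within 167 bp of the start. For genes with several starts this was the start nearest to the 2 tumor YAP summits, so short distances are partly set by that choice. At the other Birc2 start the YAP summits lay 338 and 219 bp away, further than H3K27ac (21 bp normal, 131 bp tumor). At the upstream Cdkn1a start YAP lay nearer (2797 and 2815 bp) than H3K27ac (3939 and 3875 bp). By score rank these promoter sites were ordinary. The median rank was 16.5% down the tumor 1 list and 16.9% down the tumor 2 list for the 8 genes, and 17.4% and 12.3% for the 8514 genes with a site at a start. Birc2 ranked best among the 8 genes and Bbc3 lowest in both tumor libraries. Others changed places between them, as Birc5 did with Bcl2l1 (12.4% and 13.9% in tumor 1, 13.3% and 3.86% in tumor 2) and Cdkn1a with Birc3 (30.6% and 38.6%, 29.0% and 25.2%).

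**Figure D3:**
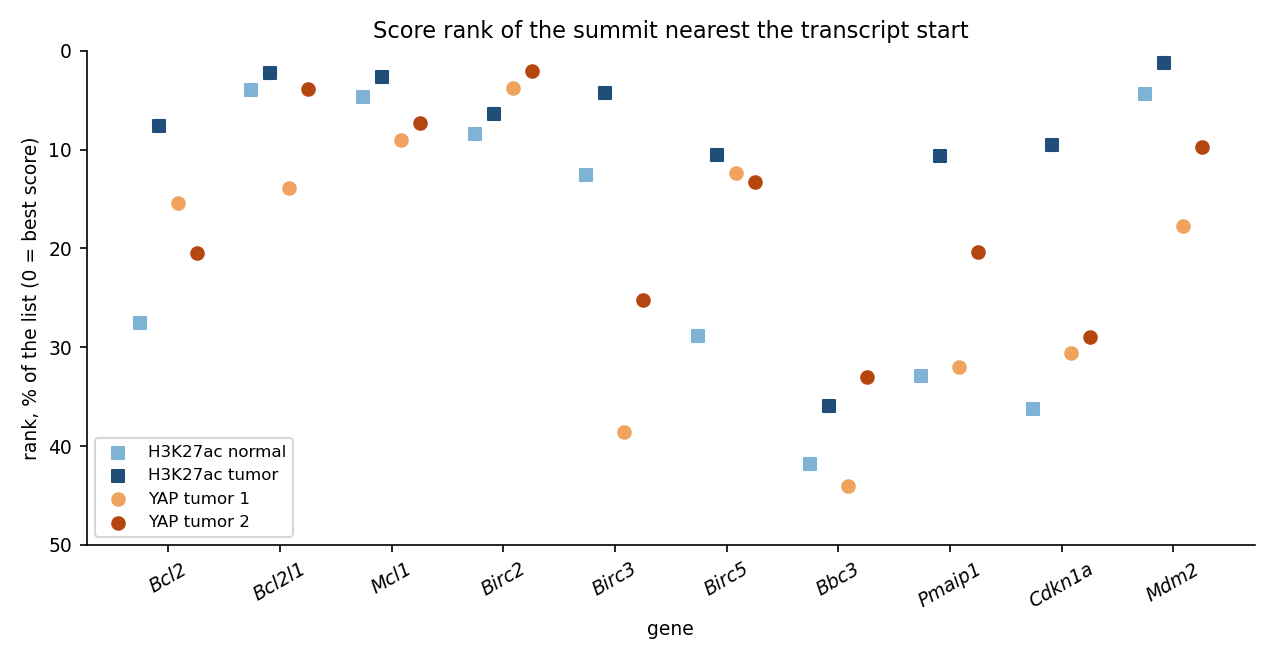
Rank by score of the summit nearest the transcript start (for Pmaip1, nearest the start coordinate), as a percent of its own list with the best at the top, for the 2 H3K27ac libraries (squares) and the 2 YAP tumor libraries (circles). Birc2 lies within the best 3.79% of both YAP lists, while Bbc3 lies at 44.0% and 33.0%. Ranks are comparable within a list only.

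H3K27ac summits of both groups lay within 1 kb of the start at all members with a start but Cdkn1a and, in the normal list, Bbc3. At Mdm2, summits lay 318 bp (normal) and 264 bp (tumor) downstream of the start and ranked 991 and 819, within the best 4.39% and 1.22% of their lists. Mcl1 had them 457 and 500 bp downstream (ranks 1047 and 1774), and Bcl2l1 655 and 569 bp downstream (890 and 1481). These 3 were the best-ranked H3K27ac starts among the members in both lists. Birc2 (ranks 1909 and 4285) and Birc3 (2843 and 2861) followed. Bcl2 had them 58 and 74 bp downstream (6218 and 5107). Birc5 had its summits upstream, at 291 and 275 bp (6530 and 7038), and Pmaip1 143 and 139 bp inside the gene (7416 and 7089). Cdkn1a had its nearest 1149 and 1085 bp downstream (8183 and 6401). Normal and tumor summits were thus within 110 bp of each other at all members with a start but Bbc3. The nearest Bbc3 summit was 2051 bp downstream in the normal list and 398 bp upstream in the tumor list, though its strongest pair (16313865 and 16313866, ranks 443 and 2228) was 1 bp apart.

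**Figure D4:**
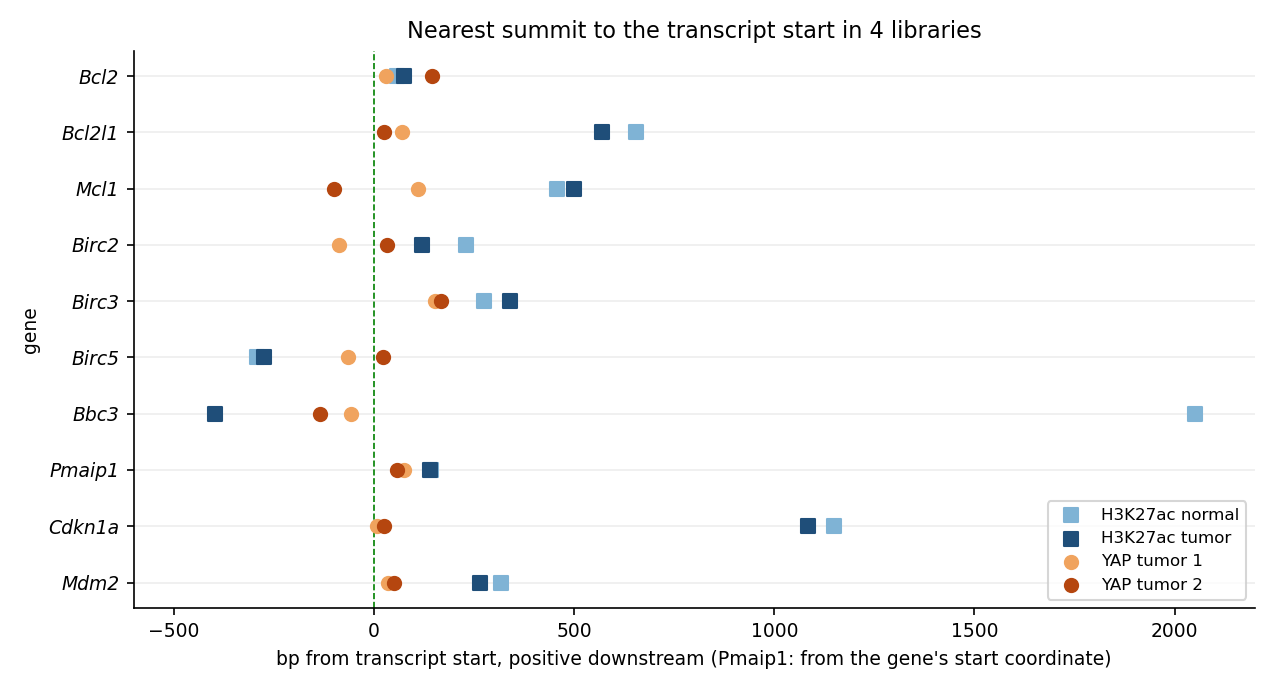
Distance in bp from the transcript start (0, dashed; positive is downstream) to the nearest summit of the 2 H3K27ac libraries (squares) and the 2 YAP tumor libraries (circles), 1 row per gene, with Pmaip1 measured from its start coordinate. All YAP summits lie within 167 bp of 0, while H3K27ac summits spread from 398 bp upstream to 2051 bp downstream, both at Bbc3. Where a gene has several starts, 0 is the start nearest to the 2 tumor YAP summits. That choice partly sets the short YAP distances there.

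The tumor H3K27ac summit lay further downstream than the mean of the 2 YAP summits at 6 of 9 members (66.7%), and at 79.6% of the 9286 genes with both at a start. Bcl2, Birc5 and Bbc3 were the exceptions. The median offset of H3K27ac was 264 bp for the members and 187 bp for all these genes, and that of YAP 16 and -2.5 bp.

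The number of H3K27ac summits around the genes depended on how the lists were compared. There is 1 library per group, so no difference here has a replicate check. The normal list had 2 to 11 summits per window (median 4.5, against 2 over all genes) and the full tumor list 2 to 15 (median 8, against 5). With the full lists 7 of 10 genes had more tumor summits (81.3% of all genes) and 3 had fewer (5.66% of all genes). Those 3 were Mcl1, with 11 normal and 6 tumor summits, Bcl2, with 6 and 3, and Pmaip1, with 4 and 2. They had fewer summits in the longer list, though at Mcl1 and Bcl2 some of the normal summits lay within 2 kb of each other. The full lists were not compared with such summits merged. At equal list length, keeping the 22574 best-scored tumor summits, 6 of 10 genes had fewer tumor summits (36.9% of all genes) and 1 had more (25.6% of all genes). The median difference was -1 summit for the members and 0 for all genes.

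The 6 with fewer were Mcl1 (11 normal and 5 tumor summits at equal length), Bcl2 (6 and 2), Mdm2 (7 and 3), Pmaip1 (4 and 1), Bcl2l1 (6 and 5) and Cdkn1a (3 and 2). Birc5 had more (4 and 6), and Birc2, Birc3 (2 and 2 each) and Bbc3 (5 and 5) had the same number. Cdkn1a shows how far the 2 comparisons part: its full tumor list held 15 summits, of which only 2 were among the best 22574. In the Mcl1 window, 3 normal summits between 95674106 and 95675273 stood beside 1 tumor summit at 95674120. With summits closer than 2 kb merged, the same 6 genes had fewer and none had more (0 genes). The shares of all genes with merged summits were not computed, so this split has no background beside it. At Pmaip1 the normal summits 5659, 10390 and 38862 bp beyond the gene had no tumor summit within 1 kb, while each YAP tumor library had a summit within 1 kb of all 3.

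**Figure D5:**
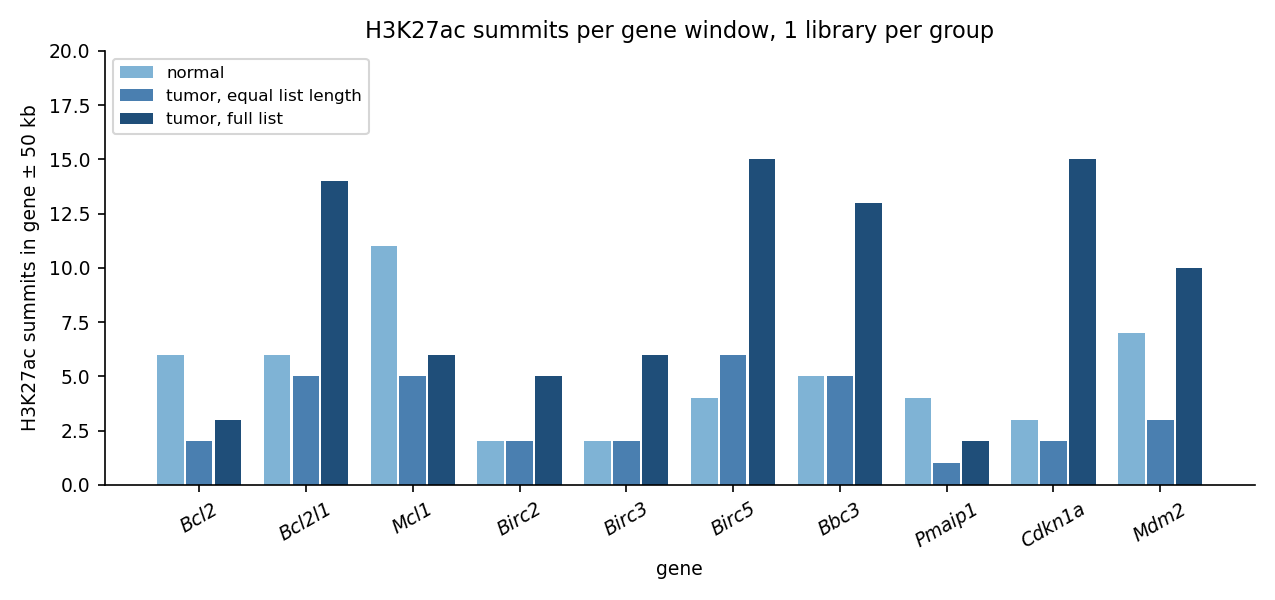
H3K27ac summits per gene window in the normal list, in the tumor list shortened to the same length, and in the full tumor list, as bars from 0. At equal length the tumor bar is below the normal bar for 6 genes, above it for Birc5 and level for 3, and the full tumor list reaches 15 at Birc5 and Cdkn1a.

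Of the 56 distinct YAP sites of both tumor libraries in these windows, 33 (58.9%) had a tumor H3K27ac summit within 1 kb, against 52.0% of the 29492 such sites genome-wide. Among the 26 sites nearest to a member, 13 had one. By single library, 44 of the 73 YAP tumor 1 summits in these windows (60.3%, against 50.8% of its whole list) and 51 of the 107 of YAP tumor 2 (47.7%, against 42.0%) had one. A normal H3K27ac summit lay within 1 kb of 28 (50.0%, against 47.4%), and summits of both lists of 24 (42.9%, against 40.6%). A further 9 had the tumor list only (16.1%, against 11.4%), and 4 had the normal list only (7.14%, against 6.8%). Of those 4, 2 were in the Pmaip1 window, 1 was at Mcl1 and 1 was the site deep inside Bcl2, which lay 380 bp from a normal summit. The tumor-only sites lay in the windows of Birc5 (3), Birc3 (2), Bcl2l1 (2), and Birc2, Bbc3 and Cdkn1a (1 each), 1 of them shared by Birc2 and Birc3. The remaining 19 (33.9%, against 41.2%) had neither.

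YAP sites were as widespread around the other genes listed for these pathways. The 5 lists, which leave the members out, held 71 genes in all. A site of both tumor libraries lay in the window of 69 of them (97.2%, against 79.2% of all genes), and 48 of the 58 with a transcript start had one within 1 kb of it (48.7% of all genes with a start). Among all genes with tumor H3K27ac within 1 kb of a start that share was 70.6%. The listed genes were not counted with that restriction. These lists were drawn up with earlier results of the data known, so the shares are descriptions. They are selections and do not hold whole families. The 14 other BCL2 family genes listed all had a site, with a median of 6. The sites named from here on were taken by distance alone. Whether the listed gene is the nearest was not checked for them, so some may belong to neighbouring genes. The best-ranked within 10 kb were those near Bcl2l2, a survival gene (ranks 622 and 2239, 3156 bp outside), Bcl2l12 (2138 and 2954, 4690 bp outside) and Bax, the pore-forming effector (2424 and 4575, 1784 bp outside).

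All 7 listed genes of the inhibitor-of-apoptosis family and its antagonists had a site. Htra2, which encodes a mitochondrial protease that antagonises these inhibitors, had one 12 bp outside its end (458 and 1008), Birc6 one inside the gene (2160 and 753), and Diablo, which encodes SMAC, one 132 bp outside (4013 and 3402). All 14 listed caspase, apoptosome and death receptor genes had one. Apaf1, the apoptosome scaffold gene, ranked 907 and 2286 at 116 bp outside, Casp9, the initiator caspase gene, 969 and 2794 at 2815 bp, and Cycs, the cytochrome c gene, 3069 and 1192 at 49 bp.

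Of p53 and its listed regulators 13 of 14 had a site. The best were those of Atr and Atm, damage-sensing kinase genes (2187 and 751 inside Atr, 2570 and 4600 at 213 bp outside Atm), and of Ppm1d, a phosphatase gene of the p53 response (2396 and 2439, 5827 bp outside). Trp63, a squamous p53 relative, had no tumor YAP summit in its window. Of the other listed p53 targets 23 of 24 had a site. The best-ranked within 10 kb lay 8652 bp outside Ddb2, a DNA repair gene (1207 and 348), and its nearest gene was not checked. Those of Gadd45a (1455 and 1511, 7 bp outside) and Btg2, an antiproliferative gene (1565 and 1983, 85 bp outside), followed. Btg2 had 12 sites in its window. Eda2r, a receptor gene, had no tumor YAP summit. At equal H3K27ac list length 37 of the 71 genes had fewer tumor summits (36.9% of all genes) and 14 had more (25.6% of all genes), with a median of -1.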

How the data were processed

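Chromatin from gastric corpus epithelium was immunoprecipitated for H3K27ac (1 normal and 1 tumor library) or YAP (2 and 2) and read as 50 bp pairs, per the labels' protocols. The deposited files are lists of 1 bp summits, 1 list per library. Bowtie2, MACS2 and GRCm38 (mm10) are named without versions in the submitters' processing notes, while for thresholds and controls nothing is given in the sources used here. The deposited score is the authors' −log10 significance, and whether it is of a p or a q is not stated. Only ranks and minimums within a list were taken from it, with ties sharing the best rank.

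Summits on the main chromosomes were assigned with pandas 2.3.3 and numpy 2.4.6 under Python 3.11.15. Tests used scipy 1.17.1 and plots matplotlib 3.10.9. The window was each gene and 50 kb beyond each end. Genes and transcript starts came from RefSeq tables of GRCm38.p6. YAP sites were paired within 200 bp, and H3K27ac counted as near within 1 kb. The distance of a site was taken to the gene's nearest start. For summits at starts, a gene with several starts was represented by the start nearest to the 2 tumor YAP summits. Groups of YAP libraries were compared for every gene by an exact two-sided permutation test. Window counts and pairing were tested on simulated data. The members and lists were chosen with earlier results of these data known. From each pathway list up to 3 genes with the best-ranked site within 10 kb and up to 2 without a tumor summit were named. No genome sequence was used, so motifs were searched in the RefSeq promoters only. Alternatives changed the window, pairing distance, score minimum, list length, libraries and grouping.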

Additional observations from a re-analysis of the deposited data

How the results depend on the processing

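All 10 genes kept a site of both tumor libraries under windows of 10 and 100 kb, score minimums of 5 and 10, pairing within 100 or 500 bp and nearest-gene assignment, but 3 had one with YAP lists of 1654 summits. The share of all genes with a site was not computed for these settings, so the counts describe the 10 genes only. With lists of 1654 summits, likewise 3 had more summits in both tumor libraries (9.83% of all genes). When libraries were grouped by their peak-name words, 0 did (0.224% of all genes). The difference between groups of the median count per window was 9.5 summits. It was 3.25 within 10 kb and by nearest gene, 12.5 within 100 kb, 4.5 at a score of at least 10, 0.25 at the shortest length and 1.5 by the name words, and ranged from 8 to 11 with 1 library left out. By those words the Birc2 and Birc3 differences turned to -0.5 each. The cause was not tested. YAP sites with tumor H3K27ac (33 of 56) numbered 13 of 26 by nearest gene, against 52.0% of all sites genome-wide. They numbered 13 within 10 kb, 56 within 100 kb and 17 at a score of at least 10. With YAP tumor 2 alone they were 51 of 107 summits, and with tumor 1 alone 44 of 73. The total of sites changes with the setting, so counts without a total give no share. The 1 gene with more tumor H3K27ac summits became 7 with the full lists and 0 within 10 kb, by nearest gene, at a score of at least 5 or 10 and with merging. The 6 with fewer became 9 within 100 kb, 5 within 10 kb and by nearest gene, and 3 with the full lists and at a score of at least 10. Over all genes, these H3K27ac counts were made only in the 50 kb window, at equal list length and with the full lists. Whether replicate numbers pair the libraries could not be decided. The correlation of their deviations was 0.027 across genes, but 94.0% and 85.1% of genes had 0 summits in YAP normal 1 and 2. With the replicate block the difference was 9.5 and the exact sign-flip p of each gene 0.5, the smallest that 2 pairs allow. Unknown depth limits every count of summits.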
